A study of Mus musculus with 2 samples.

Results

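Genes of DNA replication and of mitosis were followed in cultured dermal cells of the mouse. A list of 49 symbols was divided by known function into 25 S-phase genes, which build and regulate the replication machinery, and 24 mitotic genes, which condense, align and separate chromosomes. Members were the rows of both gene tables with those symbols. This gave 48 of the 17431 genes with a read, because the listed symbol Foxm1x was matched by no row and is unknown to the reference gene table. The mitotic members therefore number 23. All 48 had reads in both libraries.

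The SKP library came from skin-derived precursors, multipotent cells selected from the dermis by growth in defined factors. They were taken from BALB/c mice at postnatal day 4 and grown in DMEM/F12 that held 2% B27 along with the growth factors FGF2 (40 ng/ml) and EGF (20 ng/ml). The fibroblast library came from dermal fibroblasts of BALB/c mice at postnatal day 3, grown in DMEM with 10% fetal bovine serum. With 1 library for each cell type, no difference below has a replicate check or a test behind it. Cell type, medium, growth factors and age cannot be told apart. The labels do not say how many animals or cultures went into a library or how many passages the cells had.

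Before S phase the MCM helicase is loaded onto replication origins by Cdc6 and Cdt1. It is then switched on by Cdc45, the GINS complex and Mcm10, and DNA polymerases follow with the sliding clamp Pcna. E2F factors drive most of these genes from late G1. A later wave, in G2 and M, is driven by the MuvB complex with B-Myb and Foxm1, and holds the kinases, kinesins, checkpoint proteins and centromere proteins of mitosis. In populations of cells such transcripts are widely used as marks of proliferation.

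The SKP library had 18949264 reads counted in genes and the fibroblast library 18406244. Levels are in RPKM, reads scaled to the length of the gene and to the counted reads of the library, and 1 read in a gene of 1 kb was worth 0.0528 RPKM in the SKP library and 0.0543 in the fibroblast library. Ratios are SKP over fibroblast and carry 95% exact intervals for counting error, the one error source that a single library can show. A gene was taken as expressed at 1 RPKM and 20 reads or more in either library, which 12053 genes passed. Both libraries held high levels of the mesenchymal markers: the 6 fibroblast markers summed to 9190 RPKM in the SKP library and 9599 in the fibroblast library. These near sums hide large differences: 3 of the markers had intervals above equality and 3 below it, with log2 ratios from -1.05 to 2.79. Of the 8 SKP markers 3 had intervals above equality, among them the intermediate filament gene Nes at 28.2 RPKM in the SKP library and 6.30 in the fibroblast library, and 5 had intervals below it. Together the 8 summed to 2459 RPKM in the SKP library and 3175 in the fibroblast library, so the list as a whole did not mark the SKP library. Markers of keratinocytes, mast cells, adipocytes and leukocytes summed to higher levels in the SKP library, and their part in the results below was not tested. The 7 keratinocyte markers with reads, of 8 listed, summed to 29.8 RPKM in the SKP library against 2.62 in the fibroblast library, where Ivl and Krt1 had no reads. All 7 mast cell markers had SKP reads and summed to 83.1 RPKM, against 0.241 RPKM in the fibroblast library, where Cpa3 and Mcpt4 had no reads. The 6 adipocyte markers summed to 345 RPKM against 23.2 RPKM in fibroblasts, where Lep had no reads. The 6 leukocyte markers with reads summed to 25.6 RPKM in the SKP library against 4.28 RPKM in the fibroblast library. The 5 endothelial markers were mixed, with Cdh5 at 3.57 RPKM in SKPs and 0.787 in fibroblasts, Kdr at 0.328 and 0.547, and a sum of 4.81 RPKM in SKPs and 1.99 in fibroblasts.

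The replication and mitosis genes were present at similar levels in both cultures. Most differences were small, and they shared a direction among the mitotic members but not among the S-phase members. Every mitotic member had a lower RPKM in the SKP library, by factors of 1.01 to 1.77. The S-phase members divided, with the subunits of the MCM helicase, Cdt1, Pola1 and Pcna higher in the SKP library and Rrm1, Rrm2 and Tk1 of deoxynucleotide supply lower there, all outside counting error. Only Cdt1 and Rrm2 among expressed members were at least 2-fold apart with a counting interval that excluded equality. In bulk RNA fewer dividing cells and less RNA per dividing cell cannot be told apart.

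The S-phase members took 0.0913% of counted reads in the SKP library (0.0899 to 0.0926, exact binomial interval) and 0.0848% in the fibroblast library (0.0835 to 0.0862). The mitotic members took 0.0813% in the SKP library (0.0800 to 0.0825) and 0.103% in the fibroblast library (0.102 to 0.105). The mitotic share was thus below the S-phase share in the SKP library and above it in the fibroblast library. Per length the summed RPKM of the mitotic members was 0.574 of that of the S-phase members in the SKP library and 0.808 of it in the fibroblast library. These quotients are taken within a library and do not depend on how the libraries are scaled to each other.

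**Figure D1:**
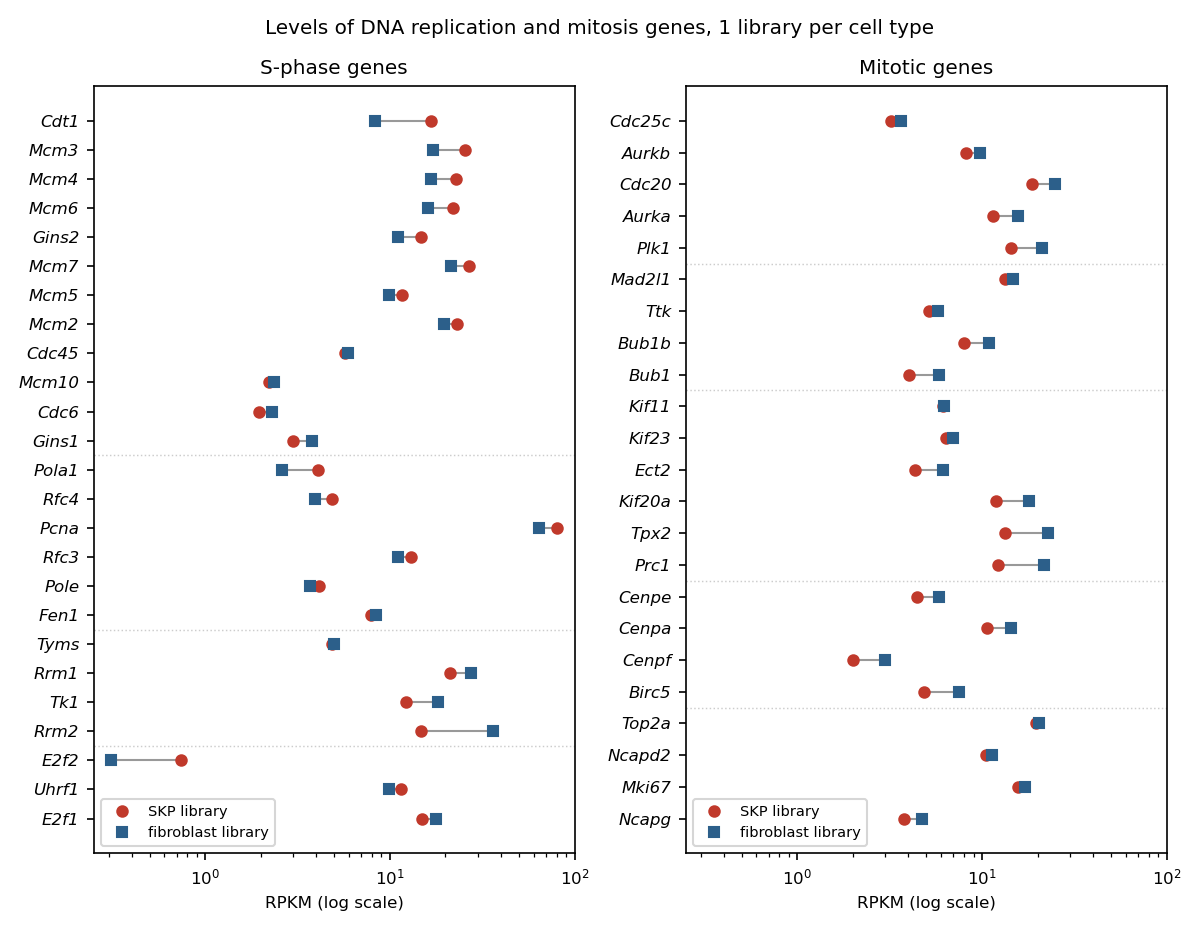
RPKM of each member on a log axis in the SKP library (circles) and the fibroblast library (squares), 1 library each, with S-phase genes on the left and mitotic genes on the right; dotted lines divide functional groups. The circle lies left of the square for all 23 mitotic genes, while the 6 genes Mcm2 to Mcm7 have it on the right.

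Among 24 expressed S-phase members, 1 passed the 2-fold limit as higher in SKPs and 1 as lower. The same rule took in 12.1% of all expressed genes as higher and 6.41% as lower. Of the 23 mitotic members, all expressed, 0 were 2-fold apart in either direction. At 1.5-fold, 2 S-phase members were higher and 1 was lower, and 0 mitotic members were higher and 5 were lower, against 18.7% of expressed genes higher and 14.2% lower. The members' counts at these limits were few and are not read as different from those shares.

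Among the mitotic members the direction of the small differences was uniform, and among the S-phase members it was not. All 23 mitotic members had a ratio below 1, against 50.5% of expressed genes, and 16 of them had a counting interval below equality, against 36.1% of expressed genes. None was above, against 49.5% of expressed genes with a ratio over 1. Of the 24 S-phase members 14 had a ratio above 1 and 10 below; 11 had an interval above equality, against 36.0% of expressed genes, and 4 an interval below it. The median log2 ratio was -0.40 for mitotic members and 0.21 for S-phase members, beside -0.0065 for all expressed genes. The interquartile range of expressed genes ran from -0.35 to 0.40, so the S-phase median lay inside it and the mitotic median just below it. The medians of S-phase and mitotic members were 0.62 apart on the log2 scale, and 14 S-phase members had a ratio above that of every mitotic member. Genes of 1 wave share their regulators, so members are not independent of each other.

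**Figure D2:**
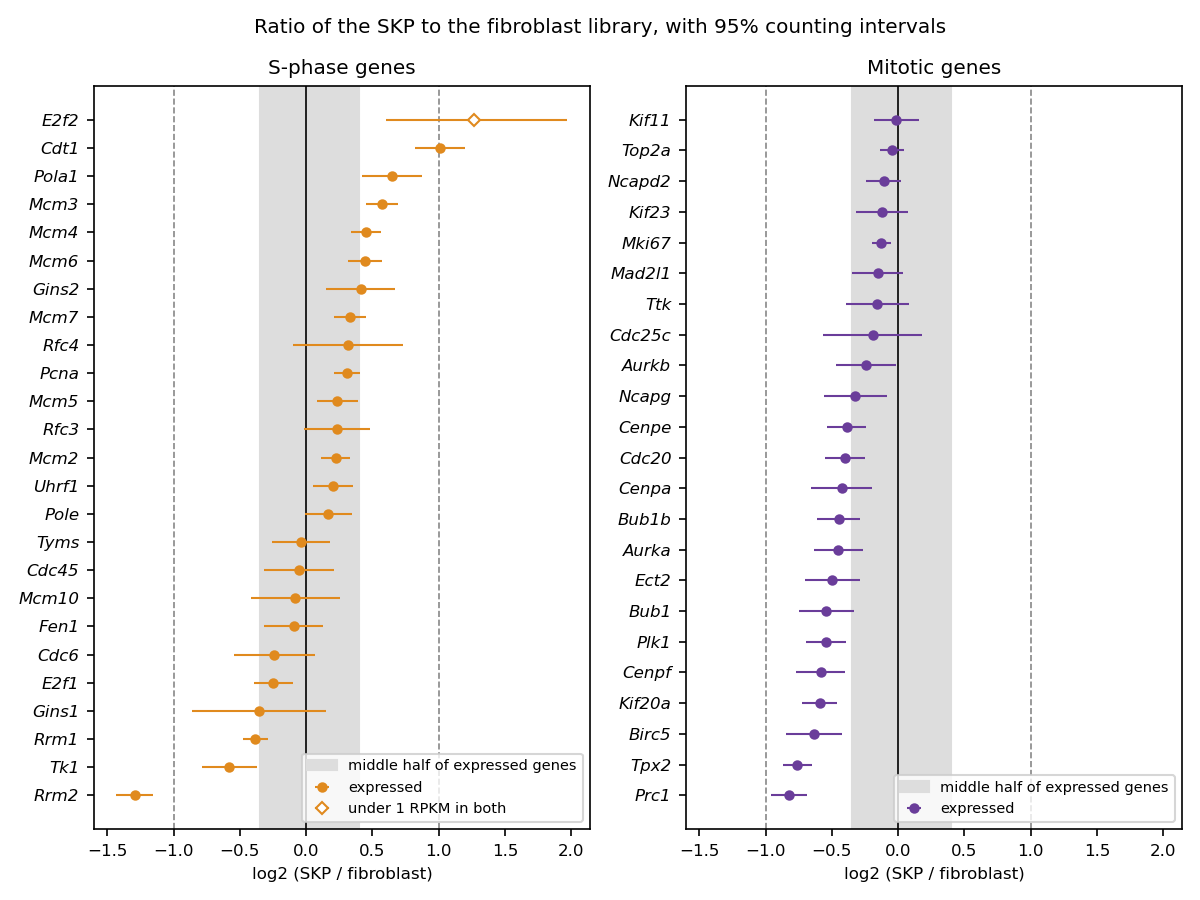
Log2 ratio of the SKP over the fibroblast library for each member, sorted, with 95% exact counting intervals as bars; the grey band is the interquartile range of expressed genes, dashed lines mark 2-fold, and the open diamond is E2f2, under 1 RPKM in both libraries. Mitotic genes lie between -0.82 and -0.01, and expressed S-phase genes between -1.29 and 1.01.

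Promoter windows of 5 members are shown because they stand at the ends of these ranges or carry the motifs of the class. Cdt1 had the highest and Rrm2 the lowest ratio of the expressed S-phase members with a window, Kif11 the highest and Prc1 the lowest of the mitotic members. Mcm6 was added after the motif counts were seen, as the member with the most E2F matches. The sequences are RefSeq's, on build GRCm38.p6, read 5′ to 3′ from 250 bases before to 50 bases after the gene start. Cdt1 lies at chr8:122567765-122568064, plus strand; Mcm6 at chr1:128359656-128359955, minus strand; Rrm2 at chr12:24708004-24708303, plus strand. Kif11 lies at chr19:37376132-37376431, plus strand, and Prc1 at chr7:80294201-80294500, plus strand, the first of 2 windows given for it. Capitals mark E2F letters (TTTCCCGC, TTTGGCGC, TTTCGCGC or TTTGCCGC), the CHR element of late cell cycle genes (TTTGAA) and the CCAAT box (CCAAT), on either strand.
Cdt1: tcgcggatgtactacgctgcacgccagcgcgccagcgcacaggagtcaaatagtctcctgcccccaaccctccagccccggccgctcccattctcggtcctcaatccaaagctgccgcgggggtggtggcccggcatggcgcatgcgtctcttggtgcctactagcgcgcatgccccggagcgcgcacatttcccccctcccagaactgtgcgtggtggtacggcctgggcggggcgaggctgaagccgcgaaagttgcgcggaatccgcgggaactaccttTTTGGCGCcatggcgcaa
Mcm6: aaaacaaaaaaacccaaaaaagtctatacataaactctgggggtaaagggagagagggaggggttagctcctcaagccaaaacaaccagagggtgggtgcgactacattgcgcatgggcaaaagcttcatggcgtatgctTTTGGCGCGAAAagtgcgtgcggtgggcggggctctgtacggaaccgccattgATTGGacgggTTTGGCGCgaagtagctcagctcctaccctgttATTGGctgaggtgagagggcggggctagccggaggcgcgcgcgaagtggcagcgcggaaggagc
Rrm2: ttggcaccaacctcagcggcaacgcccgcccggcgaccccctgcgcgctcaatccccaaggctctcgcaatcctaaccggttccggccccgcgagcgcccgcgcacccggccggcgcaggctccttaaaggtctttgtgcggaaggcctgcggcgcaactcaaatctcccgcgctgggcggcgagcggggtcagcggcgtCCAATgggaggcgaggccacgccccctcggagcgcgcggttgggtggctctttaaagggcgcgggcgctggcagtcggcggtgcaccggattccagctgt
Kif11: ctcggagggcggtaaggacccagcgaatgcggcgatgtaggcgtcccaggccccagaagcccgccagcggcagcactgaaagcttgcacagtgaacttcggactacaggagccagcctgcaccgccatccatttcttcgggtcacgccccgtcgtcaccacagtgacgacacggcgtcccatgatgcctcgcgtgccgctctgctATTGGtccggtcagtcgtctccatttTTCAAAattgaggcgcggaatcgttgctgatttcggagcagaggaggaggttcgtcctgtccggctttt
Prc1: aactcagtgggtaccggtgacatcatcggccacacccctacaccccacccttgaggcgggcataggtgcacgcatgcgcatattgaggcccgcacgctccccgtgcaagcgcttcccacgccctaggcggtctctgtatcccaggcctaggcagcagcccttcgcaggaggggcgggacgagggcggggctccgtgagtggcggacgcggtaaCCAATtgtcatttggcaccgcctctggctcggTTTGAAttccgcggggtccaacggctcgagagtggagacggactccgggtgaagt

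The Cdt1 window held 1 E2F match, 32 bases after the start, and neither of the other motifs. Mcm6 held 3 E2F matches, of which those at 110 and 106 bases before the start overlap, and 2 CCAAT boxes. Rrm2 held 1 CCAAT box, 50 bases before the start. Kif11 held a CCAAT box 45 bases and a CHR element 19 bases before the start, and Prc1 a CCAAT box 37 bases and a CHR element 5 bases before it. The promoters of the members with the smallest and the largest mitotic difference thus held the same motif kinds in the same order, on opposite strands.

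Windows were available for 40 of the 48 members, 25 windows for 21 S-phase members and 21 windows for 19 mitotic members. E2F letters stood in 40.0% of the S-phase windows and 9.52% of the mitotic windows, against 3.97% of the windows of expressed genes and 2.26% of all windows of this length in the table. The CHR letters stood in 16.0% of S-phase windows and 81.0% of mitotic windows, against 11.6% of windows of expressed genes and 17.9% of all. CCAAT letters stood in 68.0% of S-phase and 90.5% of mitotic windows, against 37.7% for expressed genes and 37.4% of all. CHR letters were thus held by a larger share of mitotic than of S-phase windows, and E2F letters by a larger share of S-phase than of mitotic windows. A match is a description of the letters and shows no binding, and no part of these motifs in the ratios was tested. Median GC content was 57.3% in S-phase windows, 59.0% in mitotic windows and 61.0% in windows of expressed genes.

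**Figure D3:**
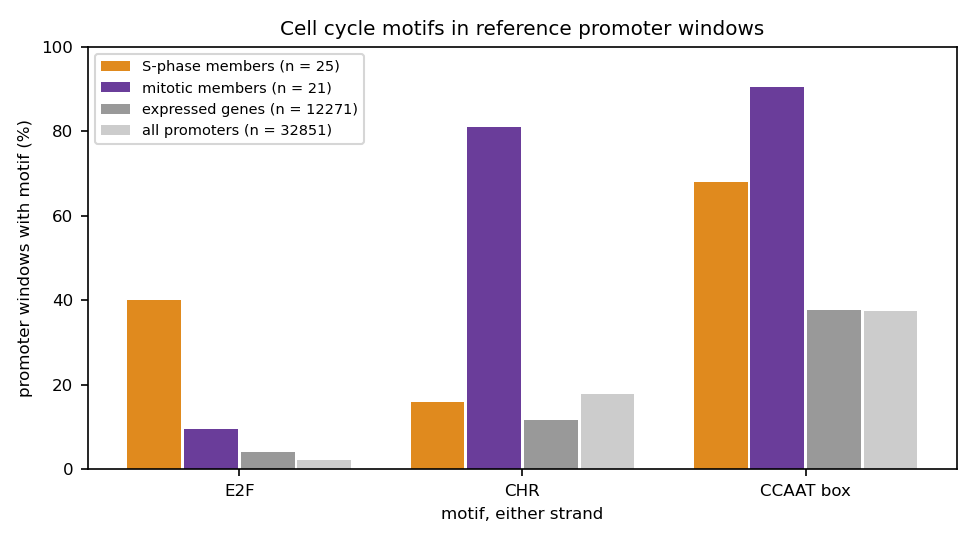
Share in percent of reference promoter windows that hold E2F, CHR or CCAAT letters on either strand, for S-phase members, mitotic members, expressed genes and all windows of the table. CHR letters reach 81.0% of mitotic windows and 16.0% of S-phase windows, and E2F letters 9.52% of mitotic and 40.0% of S-phase windows.

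Of the helicase and its loading factors 8 of 12 genes had ratios above 1, the 6 ring subunits among them, against 49.5% of expressed genes. Cdt1, which loads the MCM ring onto origins and is destroyed once S phase begins, stood at 16.8 RPKM in the SKP library against 8.32 in the fibroblast library, 2.01-fold higher (1.77 to 2.30). The value lies at the 2-fold limit itself. Mcm3, a helicase subunit, stood at 25.5 RPKM in SKPs against 17.1 in fibroblasts, 1.49-fold higher (1.37 to 1.62). Mcm4 stood at 22.8 RPKM against 16.7 in fibroblasts, 1.37-fold higher (1.26 to 1.48), and Mcm6 at 21.9 against 16.1, 1.36-fold higher (1.24 to 1.48). Mcm7 stood at 26.9 RPKM in SKPs and 21.4 in fibroblasts, Mcm2 at 23.0 and 19.7, and Mcm5 at 11.6 and 9.86. All 6 subunits of the ring, Mcm2 to Mcm7, were higher in the SKP library with intervals above equality, against 36.0% of expressed genes. Their median log2 ratio was 0.39. The log2 ratios of Mcm2 (0.22), Mcm5 (0.24) and Mcm7 (0.33) lay inside the interquartile range of expressed genes, -0.35 to 0.40. Those of Mcm3 (0.57), Mcm4 (0.45) and Mcm6 (0.44) lay above it. Per length the subunits lay within 11.6 to 26.9 RPKM in the SKP library and within 9.86 to 21.4 in the fibroblast library, Mcm5 being the lowest and Mcm7 the highest in both.

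Of the other factors that activate or load the ring, Gins2 had an interval above equality and Gins1, Cdc45, Mcm10 and Cdc6 did not. Gins2, a subunit of the GINS complex, stood at 14.8 RPKM in SKPs against 11.1 in fibroblasts, 1.33-fold higher (1.11 to 1.59). Its partner Gins1 stood at 2.97 RPKM against 3.80 in fibroblasts, on 62 and 77 reads, a fold of 0.782 (0.551 to 1.11). The intervals of these partners within 1 complex do not overlap, but their facing bounds are close, at 1.107 for Gins1 and 1.112 for Gins2. The GINS genes that are not members had folds of 1.21 (1.06 to 1.38) for Gins4 and 1.03 (0.779 to 1.36) for Gins3. Both intervals overlapped those of Gins1 and Gins2, so no split within the complex can be read. The gene Gins2 lies over Gse1, which had 1554 reads in the SKP library and 1129 in the fibroblast library. Whether reads of Gse1 entered the Gins2 count was not tested. Cdc45, which joins the ring and GINS in the active helicase, stood at 5.71 RPKM in SKPs and 5.93 in fibroblasts. Mcm10, which helps to switch the helicase on, stood at 2.23 and 2.35 RPKM. Cdc6, the loading partner of Cdt1, stood at 1.96 RPKM in SKPs and 2.31 in fibroblasts. The intervals of Gins1, Cdc45, Mcm10 and Cdc6 all held equality, so at this depth no direction can be read for them.

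Of the genes that copy the strands, Pola1, the catalytic subunit of the primase-polymerase, differed the most. It stood at 4.10 RPKM in the SKP library against 2.62 in the fibroblast library, 1.57-fold higher (1.34 to 1.84). Pcna, the clamp that holds polymerases on DNA, was the most abundant member at 79.9 RPKM in SKPs and 64.5 in fibroblasts, 1.24-fold higher (1.16 to 1.33). Pole, the leading-strand polymerase, stood at 4.16 RPKM and 3.71 in fibroblasts. The clamp loader subunits Rfc3 (13.0 RPKM in SKPs, 11.1 in fibroblasts) and Rfc4 (4.89 and 3.93) and the flap endonuclease gene Fen1 (7.86 and 8.39) were near equality. Intervals of Pole, Rfc3, Rfc4 and Fen1 included equality, so only Pola1 and Pcna of these 6 were outside counting error.

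Of the genes that supply deoxynucleotides, Rrm1, Rrm2 and Tk1 ran the other way. Rrm2, the regulatory subunit of ribonucleotide reductase, which makes deoxynucleotides, stood at 14.8 RPKM in the SKP library against 36.2 in the fibroblast library, 2.45-fold lower in SKPs (2.23 to 2.70). Rrm1, the large subunit of the same enzyme, stood at 21.2 RPKM against 27.6 in fibroblasts, 1.31-fold lower (1.22 to 1.39). The subunits thus changed rank, with Rrm1 the higher in the SKP library and Rrm2 the higher in the fibroblast library. Tk1, thymidine kinase of the salvage route, stood at 12.2 RPKM in SKPs against 18.1 in fibroblasts, 1.49-fold lower (1.29 to 1.73). Tyms, thymidylate synthase, stood at 4.85 RPKM in SKPs and 4.98 in fibroblasts, on 350 and 349 reads, with an interval that included equality. Its pseudogene Tyms-ps had 2 reads in the SKP library and 3 in the fibroblast library. All 4 ratios of the supply genes were below 1, against 50.5% of expressed genes, with a median log2 of -0.48. That of Tyms was within counting error, so 3 had intervals below equality, against 36.1% of expressed genes.

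E2f1, an activating E2F factor, stood at 15 RPKM in the SKP library against 17.8 in the fibroblast library, 1.19-fold lower (1.07 to 1.32). E2f2, a related activator, was the 1 member under the expression limit, at 0.745 RPKM in SKPs against 0.309 in fibroblasts on 67 and 27 reads, 2.41-fold higher (1.52 to 3.92). Reads covered 45.9% of its length in the SKP library and 24.2% in the fibroblast library. Uhrf1, which brings the maintenance DNA methyltransferase to newly copied DNA, stood at 11.4 RPKM in SKPs against 9.92 in fibroblasts, 1.15-fold higher (1.04 to 1.28). The regulators were therefore mixed in direction, and the largest of these ratios belongs to the least abundant member.

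Proteins of the spindle midzone and of spindle assembly held the largest mitotic differences. Prc1, which bundles microtubules in the midzone, stood at 12.2 RPKM in the SKP library against 21.6 in the fibroblast library, 1.77-fold lower (1.61 to 1.94). Tpx2, which activates Aurka on the spindle, stood at 13.4 RPKM in SKPs against 22.7 in fibroblasts, 1.70-fold lower (1.57 to 1.83). Kif20a, a kinesin of cytokinesis, stood at 11.9 RPKM against 18.0 in fibroblasts, 1.51-fold lower (1.38 to 1.65). Ect2, an exchange factor needed for cytokinesis, stood at 4.34 RPKM in SKPs and 6.13 in fibroblasts, 1.41-fold lower (1.22 to 1.63). Kinesins did not move as a class: Kif11, which pushes spindle poles apart, stood at 6.17 RPKM in SKPs and 6.23 in fibroblasts, and the midzone kinesin gene Kif23 at 6.38 and 6.94, both with intervals that included equality.

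Centromere and kinetochore genes came next, and all 4 had intervals below equality, against 36.1% of expressed genes. Birc5, which encodes survivin of the chromosomal passenger complex, stood at 4.85 RPKM in SKPs against 7.54 in fibroblasts, 1.55-fold lower (1.34 to 1.80). Cenpf stood at 2.00 RPKM against 3.00 in fibroblasts, 1.5-fold lower (1.32 to 1.70). Cenpa, the histone variant that marks centromeres, stood at 10.7 RPKM in SKPs and 14.4 in fibroblasts, and the kinetochore motor gene Cenpe at 4.46 and 5.85. The median log2 ratio of these genes was -0.51.

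Mitotic kinases and their counterparts lay between. Plk1, a kinase of mitotic entry and centrosome maturation, stood at 14.4 RPKM in SKPs against 21.1 in fibroblasts, 1.46-fold lower (1.31 to 1.62). Aurka, the spindle pole kinase, stood at 11.4 RPKM against 15.6 in fibroblasts, 1.37-fold lower (1.20 to 1.56). Cdc20, which activates the anaphase-promoting complex, was the most abundant mitotic member in fibroblasts at 24.7 RPKM, with 18.7 in SKPs. These 3 had intervals below equality. Aurkb, the kinase of the passenger complex, stood at 8.22 RPKM in SKPs and 9.72 in fibroblasts, with an interval just below equality (1.01 to 1.38 as fold lower). Cdc25c, a phosphatase that activates Cdk1, stood at 3.21 and 3.67 RPKM, with an interval that included equality.

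Of the spindle checkpoint genes, Bub1 and Bub1b had intervals below equality. Bub1, a kinase of the checkpoint, stood at 4.02 RPKM in SKPs against 5.85 in fibroblasts, 1.46-fold lower (1.26 to 1.68). Bub1b, which encodes BubR1 of the inhibitory complex, stood at 8.0 RPKM against 10.9 in fibroblasts, 1.36-fold lower (1.22 to 1.53). Ttk, the kinase upstream of both, stood at 5.18 RPKM in SKPs and 5.78 in fibroblasts, and Mad2l1 at 13.2 and 14.7. The intervals of Ttk and Mad2l1 included equality and overlapped those of Bub1 and Bub1b.

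Mki67 and Top2a, widely used as proliferation markers, were close to equality. Mki67, which encodes Ki-67, stood at 15.7 RPKM in the SKP library and 17.2 in the fibroblast library on 3012 and 3194 reads, 1.09-fold lower (1.04 to 1.15). Top2a, the topoisomerase that untangles sister chromatids, stood at 19.6 RPKM in SKPs and 20.3 in fibroblasts on 1941 and 1950 reads, a fold of 0.967 (0.908 to 1.03). These are among the most deeply counted members, and their intervals are the narrowest. Of the condensin I subunits, Ncapd2 stood at 10.5 RPKM in SKPs and 11.3 in fibroblasts, with equality inside its interval, and Ncapg at 3.78 and 4.73, 1.25-fold lower (1.06 to 1.48).

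Other genes of the same processes had medians of the same signs, nearer to equality. Of 45 expressed other replication genes 29 had a ratio above 1, 17 with an interval above equality and 7 with an interval below it, against 36.0% and 36.1% of expressed genes, and the median log2 ratio was 0.075. The higher calls of this list were thus near the background share. The 3 highest were polymerase subunit Pole2 (6.48 RPKM in SKPs, 4.33 in fibroblasts), the replisome linker Wdhd1 (3.29 and 2.22) and primase-polymerase subunit Pola2 (12.8 and 8.67). The 3 lowest were Orc1 of the origin recognition complex (1.43 RPKM in SKPs, 3.11 in fibroblasts), Dbf4, the activator of the Cdc7 kinase (8.87 and 14.8), and the Cdt1 inhibitor gene Gmnn (2.97 and 4.64). Orc1 was the 1 gene of this list at least 2-fold apart, 2.17-fold lower in SKPs (1.66 to 2.86). Cdt1 and its inhibitor Gmnn thus lay on opposite sides.

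Of 71 other mitosis genes, all expressed, 53 had a ratio below 1, 39 with an interval below equality and 5 with an interval above it, beside the same background shares, and the median log2 ratio was -0.23. Foxm1 itself, which drives the mitotic wave, stood at 11.5 RPKM in SKPs and 13.0 in fibroblasts, 1.13-fold lower (1.03 to 1.23). Mybl2, the gene of B-Myb, was counted here among the other replication genes. It stood at 2.58 RPKM in SKPs and 3.82 in fibroblasts, 1.48-fold lower (1.22 to 1.80). The lowest ratios belonged to Cep55 of abscission (2.37 RPKM in SKPs, 4.84 in fibroblasts), the midbody kinase gene Cit (1.07 and 2.06) and Cdca8, borealin of the passenger complex (7.56 and 13.97). The highest were the phosphatase gene Cdc25b (11.5 RPKM in SKPs, 6.94 in fibroblasts), the spindle pole gene Aspm (2.29 and 1.61) and the cohesin protector gene Sgo2a (3.45 and 2.67). Cep55, 2.04-fold lower, was the 1 gene of the list past 2-fold. Cdc25b, higher in SKPs, and Cdc25c, near equality, are members of 1 phosphatase family.

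The lists of regulators sat nearer to equality, and their few interval counts are not read as different from the shares over expressed genes. The 16 E2F partners, pocket proteins and MuvB subunits had a median log2 ratio of -0.023. They held 5 intervals above equality and 3 below it, against 36.0% and 36.1% of expressed genes. Among them E2f8, a repressor E2F, stood at 8.55 RPKM in the SKP library against 3.97 in the fibroblast library, 2.15-fold higher (1.86 to 2.49). Tfdp2, an E2F partner (4.30 RPKM in SKPs, 2.79 in fibroblasts), and the pocket protein gene Rbl1 (5.79 and 3.86) were the next highest. Rb1, the retinoblastoma gene (4.26 RPKM in SKPs, 6.06 in fibroblasts), E2f6 (11.4 and 13.5) and Tfdp1 (50.1 and 59.0) were the lowest. The 16 genes of the anaphase-promoting complex and its regulators had a median of -0.058. They held 5 intervals above and 7 below equality, beside the same background shares. Their lowest ratios were those of the inhibitor gene Fbxo5 (3.10 RPKM in SKPs, 5.37 in fibroblasts) and the subunit genes Anapc16 (29.3 and 40.3) and Anapc15 (12.2 and 15.4), and the highest those of Cdc26 (31.2 and 25.2), Anapc1 (27.8 and 22.5) and Cdc23 (13.7 and 11.5).

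**Figure D4:**
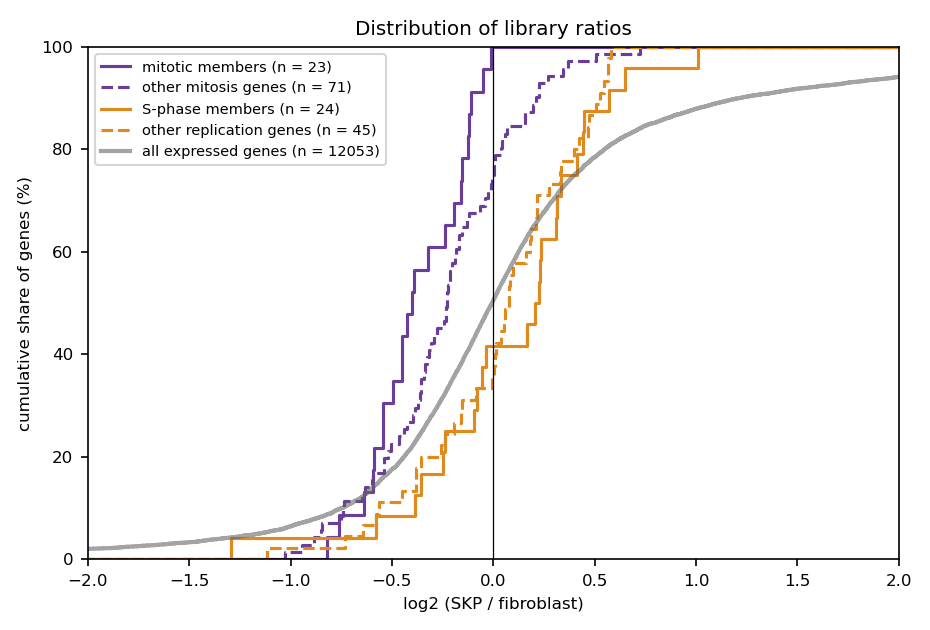
Cumulative share of genes, in percent, by log2 ratio of the SKP over the fibroblast library, for mitotic and S-phase members (solid), other genes of both processes (dashed) and all expressed genes (grey), drawn between -2 and 2. The mitotic members reach 100% before 0, where 50.5% of expressed genes have a ratio below 1, and their median is -0.40 against 0.21 for S-phase members.

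The authors' deposited table, whose ratio is fibroblast over SKP, gave the same direction for these genes, as it rests on the same reads. Its filtered form kept 2659 of the 17431 genes compared. Of the 48 members it kept 3, the S-phase members Rrm2, Cdt1 and E2f2, and 0 mitotic members. The smallest absolute log2 ratio among the genes it kept was 1.00. The largest among mitotic members was 0.82, for Prc1, so the filtered form cannot speak to differences of their size. Genes that lie on top of each other limit some values, because no source used here says whether counting used strand. Of the 48 members, 21 overlap another gene in the reference table, and in 10 of these the neighbour had reads. Among the 10 are Cdc20 (with Elovl1), Rfc4 (with Eif4a2), Aurka (with Cstf1) and Prc1 (with Rccd1). So are Tk1 (with Afmid), E2f1 (with Necab3) and Kif20a (with Brd8 and Cdc23). Without those 10 members, all 18 mitotic members left had ratios below 1, with a median of -0.31. Of these 11 had intervals below equality, against 36.1% of expressed genes. The 19 expressed S-phase members left had 11 ratios above 1 and 8 below, with a median of 0.20. Their intervals were above equality for 9 and below it for 2.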

How the data were processed

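The authors deposited, for each gene, an unscaled read count, its RPKM and the percent of its length covered, per the file headers. RPKM values are those counts divided by gene length and by the counted reads. A further deposited table holds log2 of fibroblast over SKP RPKM, a p-value and an FDR; its test is not stated there. Mapping allowed 2 mismatches at most in reads of 49 bases, and 85.13% of 22981183 SKP reads and 81.65% of 23374716 fibroblast reads were mapped, per the file headers and class names. The submitters' processing notes name build mm9. Aligner, counter and annotation were not given in the sources used here. Counted reads exceed the reads with a single match, so the split between paralogs and pseudogenes is uncertain.

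Log2 ratios of SKP over fibroblast and 95% exact (Clopper-Pearson) intervals were computed from the counts scaled by total counted reads, with scipy 1.17.1, numpy 2.4.6 and pandas 2.3.3 under Python 3.11.15; figures used matplotlib 3.10.9. PCR duplicates are not independent molecules. A call needed a ratio of 2-fold or more and an interval clear of equality. The interval calls were checked on simulated data. Those reads held counting error alone, the error that the intervals assume, and the planted differences were all past 2-fold. The check therefore says nothing of other error sources or of how often smaller differences are found. With 1 library per group no p-value was computed and no count model was run. Alternatives were other filters, scalings, a pseudocount of 1, a 1.5-fold limit and the authors' filter. Members and lists were chosen with earlier results of these data known, and 5 listed genes were matched through their gene ID. All members are named, with Foxm1 and the 3 highest and 3 lowest expressed genes of each other list of the pathway. Mybl2, Gins3 and Gins4 were added with their values known. Promoter windows are on another build than the counts.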

Additional observations from a re-analysis of the deposited data

How the results depend on the processing

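Other settings were tried for the counts and medians of the S-phase and mitotic members, the count over all expressed genes and the member ratios; the other lists and the functional groups were not recomputed. The 141 member ratios recomputed with the pseudocount or another scaling stayed within their own counting intervals (filters and fold limits cannot change a ratio), and all 23 mitotic ratios stayed below 1 under median-of-ratios and upper-quartile scaling. Those scalings moved log2 ratios by 0.0095 and -0.049. Of 2 S-phase members at least 2-fold apart, 1 was left on the log2(RPKM + 1) scale and 1 under upper-quartile scaling, Rrm2 in both, since Cdt1 lies at the limit. With a 1.5-fold limit 5 mitotic members were called, against 0. Over all expressed genes 2227 were called, against 1306 at 5 RPKM or more and 3971 at 1.5-fold, because fewer genes pass the filter and more the lower limit. The mitotic median ran from -0.45 to -0.31 and the S-phase median from 0.17 to 0.23 over the alternatives. Counts past counting error, medians without overlapping genes and the difference of the medians, which was 0.59 to 0.65 over filters and the pseudocount and 0.52 without overlapping genes, were added after the data were seen. No paired analysis was possible because each group has 1 library, and no library could be left out. Members under about 100 reads, such as Gins1, Rfc4 and E2f2, have wide intervals.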
